A study of Mus musculus with 15 samples.

Results

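Endothelial identity is maintained by a small set of transcription factors, of which Erg, Fli1, Ets1, Sox7, Sox17, Sox18, Tal1, Lyl1 and Gata2 were examined here. The 9 genes were taken by symbol from a table of 12698 RefSeq transcripts, and the values of all transcripts that carried a symbol were summed. Of the 9 factors, 8 had values among the 10222 symbols, and Lyl1 was not analysed here. Expression was measured by RNA-seq in 15 libraries, 3 from each of 5 cell populations sorted by flow cytometry from C57BL/6 mice carrying an IL-33-citrine reporter, which were heterozygous for it per the study design. White adipose tissue (WAT) gave CD31+ endothelial cells, gated as Lin-CD45-Epcam-CD31+, and mesenteric WAT gave mesenchymal stromal cells (WAT-MSCs), gated on PDGFRα, CD34, Sca1 and Podoplanin without CD31 or CD24 and divided by citrine into Il33+ and Il33- cells. Lung gave Il33+ MSCs and Epcam+ epithelial cells. The labels give neither the age of the mice nor whether cells were pooled, and no agent was given to any group in the labels. Libraries of a population were from independent experiments. Library names placed them on 2 sequencing lanes, with replicate 3 of each WAT population alone on lane 2 and lung replicates 2 and 3 on lane 2.

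Erg, Fli1 and Ets1 are ETS factors, which bind a GGAA core through a shared DNA-binding domain and occupy the enhancers of many endothelial genes. Sox7, Sox17 and Sox18 form the SOXF subgroup, high-mobility-group (HMG) box proteins that act partly redundantly in vessel formation, in arterial fate and, for Sox18, in the onset of the lymphatic lineage. Tal1 and Lyl1 are basic helix-loop-helix proteins that pair with E proteins and act together with Lmo2 and GATA factors, among them Gata2, in blood and endothelial cells alike.

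The genes lie on 7 chromosomes of GRCm38, the mm10 build that the submitters named. Erg (NCBI gene 13876) is at chr16:95359169-95586600, Sox7 (20680) at chr14:63943706-63950732, Sox17 (20671) at chr1:4490928-4497426 and Sox18 (20672) at chr2:181669837-181671640. Tal1 (21349) is at chr4:115056426-115071755 and Gata2 (14461) at chr6:88193891-88207032. Fli1 (14247, chr9:32422204-32543432) and Ets1 (23871, chr9:32636241-32757820) are neighbours on the same chromosome, 92808 bases apart and on opposite strands.

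Because members of a family could share reads, the most similar ungapped 90 bases of coding sequence were found for the ETS factors in GENCODE transcripts. The windows are shown 5′ to 3′ with capitals at the bases identical in all 3 genes. The window falls in the DNA-binding domain, at coding bases 967 to 1056 of Erg (chr16:95361121-95361210, minus strand), 946 to 1035 of Fli1 (chr9:32424100-32424189, minus strand) and 847 to 936 of the shorter Ets1 transcript, where it crosses an exon junction on the plus strand.
Erg: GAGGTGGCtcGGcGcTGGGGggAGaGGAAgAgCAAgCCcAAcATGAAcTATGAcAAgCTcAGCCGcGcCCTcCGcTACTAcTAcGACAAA
Fli1: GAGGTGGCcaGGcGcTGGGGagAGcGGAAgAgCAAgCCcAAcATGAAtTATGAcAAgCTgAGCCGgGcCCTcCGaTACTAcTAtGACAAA
Ets1: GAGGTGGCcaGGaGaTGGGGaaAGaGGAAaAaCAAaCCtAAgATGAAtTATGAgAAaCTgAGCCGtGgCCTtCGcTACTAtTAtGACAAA
Across the 3 ETS genes 68 bases were identical (75.6%), and the closest pair, Erg and Fli1, shared 81 of the 90 (90%). Over the whole coding sequences the longest run of identical bases was 22 between Erg and Fli1. The differences are thus spread through even the most conserved stretch.

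The 3 endothelial libraries carried the markers of their label. The summed level of 12 endothelial markers, in RPKM (read counts scaled to transcript length and to the mapped reads of the library, so that levels may be set side by side between genes), was 750 to 882 in the endothelial libraries, 13.6 to 34.0 in Il33+ WAT-MSCs, 3.62 to 18.8 in Il33- WAT-MSCs, 39.5 to 64.6 in lung MSCs and 68.6 to 110 in lung epithelium. Stromal RNA was also present in the endothelial libraries, where 10 stromal markers summed to 2105 to 4326 RPKM against 4952 to 10420 in the 9 MSC libraries. The sum of 6 pericyte markers was also highest there, at 189 to 254 RPKM, and most of it was Rgs5 (mean 188). That sum was 29.6 to 36.0 in Il33+ WAT-MSCs, 6.06 to 13.6 in Il33- WAT-MSCs, 104 to 113 in lung MSCs and 6.01 to 10.2 in epithelium. Rgs5, Cspg4, Notch3 and Mcam had their highest mean in endothelial cells. Abcc9 (84.6 against 15.4 RPKM in endothelial cells) and Kcnj8 (18.6 against 6.81) had theirs in lung MSCs. The part of the pericyte markers in the factor levels was not tested. In lung epithelium 8 epithelial markers reached 162100 to 209500 RPKM, nearly all of it from Scgb1a1 (160613 to 208003). There 7 leukocyte markers summed to 716 to 1354 RPKM, of which Lyz2, a gene that alveolar epithelium also uses, made up 658 to 1301. The other 6 came to 53.0 to 61.6 in epithelium, against 4.75, 92.0 and 28.7 in endothelial replicates 1, 2 and 3. In the MSC libraries they came to 7.67 to 45.3. The libraries held 42711843 to 60773158 alignments (median 53038567). These populations are bulk samples, so fewer cells of a type and less RNA per cell cannot be told apart.

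Every one of the 8 factors was higher in each of the 3 endothelial libraries than in any of the 12 others, a state found in 383 of all 10222 genes (3.75%). The plot of levels by library shows this separation for each factor. In the endothelial cells Erg had the highest mean at 118 ± 43.0 RPKM (SD, n = 3 here and below), followed by Sox7 (40.3 ± 10.4), Fli1 (24.9 ± 6.21), Sox18 (24.6 ± 5.41), Ets1 (19.6 ± 8.15), Tal1 (15.3 ± 19.4), Gata2 (5.54 ± 1.26) and Sox17 (3.48 ± 2.60). Erg ranked 154 and Sox7 558 among all genes by endothelial mean, Gata2 4108 and Sox17 5568. The libraries of Erg did not overlap with those of Sox7, nor Sox7 with Fli1, whereas Fli1, Sox18, Ets1 and Tal1 overlapped with their neighbours in this order, as did Gata2 and Sox17.

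**Figure D1:**
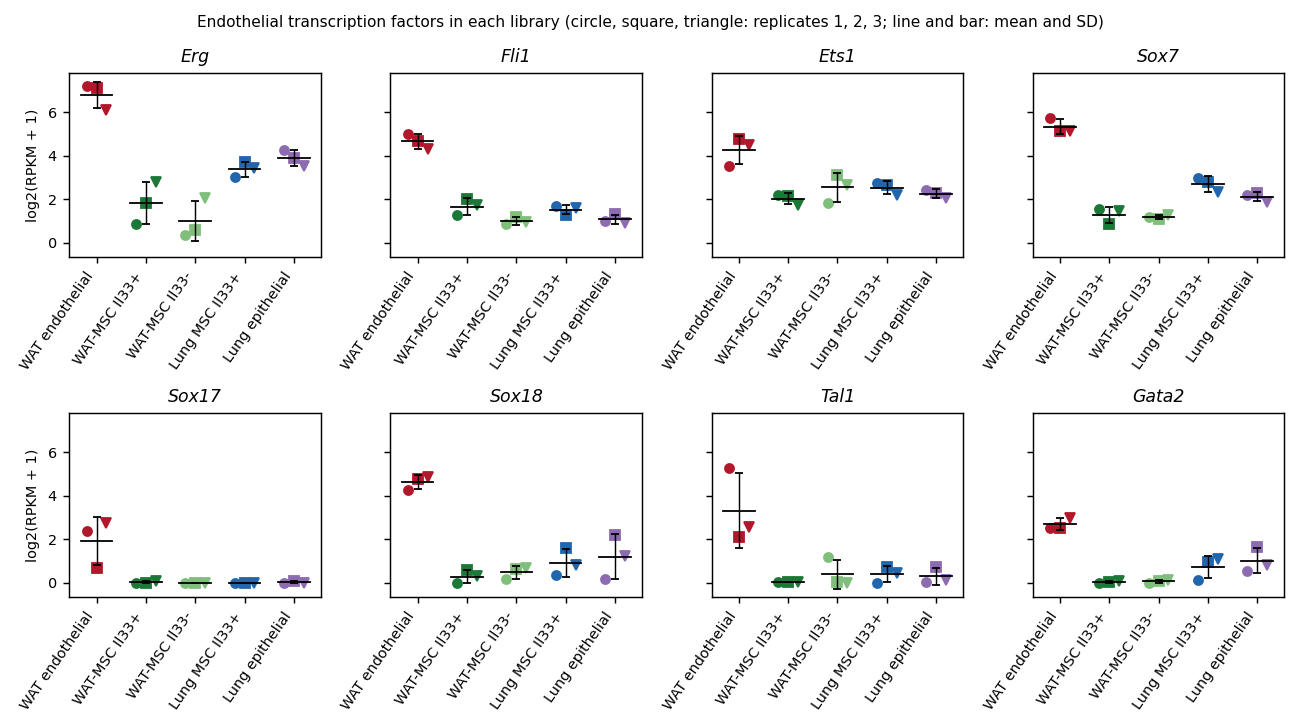
Level of each factor, log2(RPKM + 1), in the 15 libraries by population, with replicates 1, 2 and 3 as circles, squares and triangles and the mean and SD in black. For every factor the 3 endothelial libraries lie above the 12 others, with the widest spread within the endothelial group for Tal1 and Sox17.

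To ask how far endothelial cells stood apart from each other population, log2(RPKM + 1) was compared with limma among genes with at least 1 RPKM in 3 of the 6 libraries, and p-values were adjusted over all genes tested. A gene is called here at an adjusted p under 0.05. Of 7 factors tested, 6 were called higher in endothelial cells against Il33+ WAT-MSCs, where 3.34% of 8665 genes were. Against Il33- WAT-MSCs 5 were called, beside 4.1% of 8713 genes, and against lung MSCs 6, beside 4.1% of 8763 genes. Against lung epithelium all 7 were called, where the comparison called 14.9% of 9261 genes higher. Sox18, Tal1 and Gata2 passed the filter in all 4 comparisons through their endothelial libraries alone, as did Erg and Sox7 against Il33+ WAT-MSCs, Erg and Fli1 against Il33- WAT-MSCs and Fli1 against epithelium, so that a difference in these cases was required for testing and the counts carry no weight of their own. The 4 comparisons share the same 3 endothelial libraries. The median difference of all genes tested was -0.18, -0.17, -0.14 and 0.08, and scaling libraries by median ratios moved it to -0.02, -0.02, -0.03 and -0.12.

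**Figure D2:**
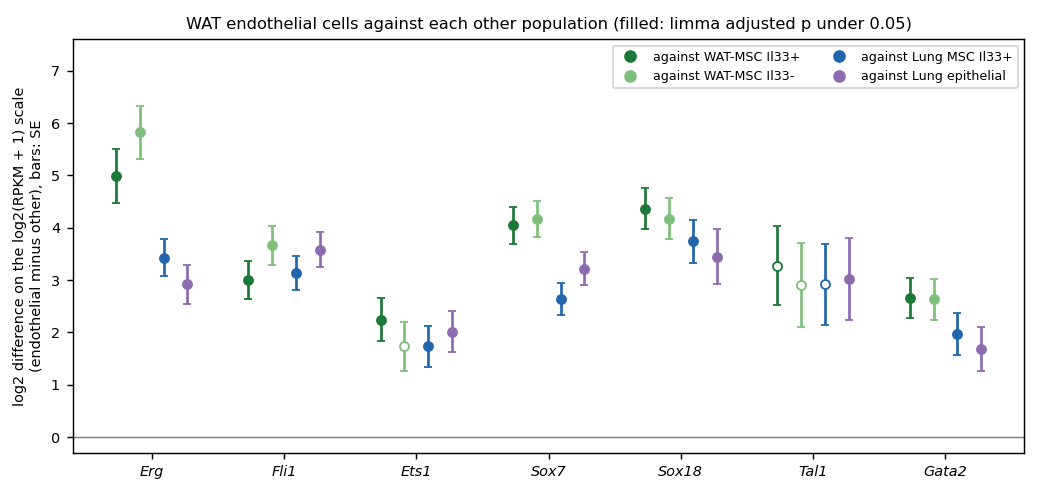
Difference on the log2(RPKM + 1) scale, endothelial minus other population, with its SE, for the 7 factors tested; filled points have a limma adjusted p under 0.05. Erg shows the widest range, from 2.92 against lung epithelium to 5.82 against Il33- WAT-MSCs, and the open points are Tal1 against the 3 MSC populations and Ets1 against Il33- WAT-MSCs.

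Erg, the ETS factor that sustains endothelial junction genes in the adult vessel, was at 147, 138 and 68.2 RPKM in endothelial replicates 1, 2 and 3. In Il33+ WAT-MSCs it was at 0.80, 2.55 and 5.96 RPKM, and in Il33- WAT-MSCs at 0.27, 0.49 and 3.14. Replicate 3 was the lowest library for endothelial Erg and the highest in both WAT-MSC groups, which overlapped with each other but lay far below the endothelial libraries. Lung MSCs had 7.12, 12.1 and 9.75 RPKM, and lung epithelial cells 18.1, 13.9 and 10.6. The lung populations overlapped with each other, and both were above every WAT-MSC library. The difference was 4.99 ± 0.51 (SE, limma adjusted p = 0.0014) against Il33+ WAT-MSCs and 5.82 ± 0.51 (adjusted p = 0.000507) against Il33- WAT-MSCs. It was 3.43 ± 0.35 (adjusted p = 0.00134) against lung MSCs and 2.92 ± 0.37 (adjusted p = 0.000703) against epithelium. As a ratio of means these were 37.9, 90.4, 12.2 and 8.30.

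Fli1, the closest relative of Erg and a regulator of endothelial and megakaryocytic genes, was at 31.2, 24.7 and 18.8 RPKM in the endothelial libraries. It was at 1.39, 3.08 and 2.29 RPKM in Il33+ WAT-MSCs, 0.80, 1.3 and 0.94 in Il33- WAT-MSCs, 2.22, 1.44 and 2.06 in lung MSCs and 1.02, 1.49 and 0.89 in epithelium. Unlike those of Erg, the lung and WAT-MSC libraries overlapped for Fli1, and all 12 non-endothelial libraries lay between 0.80 and 3.08 RPKM. The endothelial difference was 3.00 ± 0.36 (limma adjusted p = 0.00224) against Il33+ WAT-MSCs, 3.66 ± 0.37 (0.00079) against Il33- WAT-MSCs, 3.14 ± 0.32 (0.00126) against lung MSCs and 3.58 ± 0.34 (0.000178) against epithelium.

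Ets1, which is used by lymphocytes and angiogenic endothelium as well as by many other cells, was at 10.7, 26.6 and 21.6 RPKM in endothelial replicates 1, 2 and 3. Its endothelial mean was 4.59 times that of the 12 other libraries, the lowest such ratio of the 8 factors. It was at 3.61, 3.50 and 2.30 RPKM in Il33+ WAT-MSCs, 2.61, 7.80 and 5.26 in Il33- WAT-MSCs, 5.81, 5.38 and 3.56 in lung MSCs and 4.43, 3.92 and 3.17 in epithelium. All 12 of these libraries were above 2 RPKM, and the highest, at 7.80, came close to the lowest endothelial one. The difference passed the test against Il33+ WAT-MSCs (2.25 ± 0.41, limma adjusted p = 0.0179), lung MSCs (1.73 ± 0.39, adjusted p = 0.0324) and epithelium (2.01 ± 0.39, adjusted p = 0.00594). Against Il33- WAT-MSCs it was 1.73 ± 0.46 with an adjusted p of 0.0667. The Ets1 call was less stable than the other ETS calls. With the more abundant of its transcripts alone the adjusted p was 0.193 against Il33+ WAT-MSCs, 0.261 against lung MSCs and 0.054 against epithelium; against lung MSCs it was 0.0713 with lane as a covariate and 0.056 without the filter. Leaving out endothelial replicate 2 gave adjusted p = 0.15 against Il33+ WAT-MSCs and 0.141 against lung MSCs, without endothelial replicate 3 it was 0.0527 and 0.0736, and omission of any single MSC library gave 0.0707 to 0.0893 and 0.112 to 0.151. Without endothelial replicate 1 the difference from Il33- WAT-MSCs was 2.10 with an adjusted p of 0.0188, and that comparison also passed with median-ratio scaling (0.0128), quantile normalization (0.0258) and all 15 libraries in one fit (0.00632).

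Sox7, a SOXF factor of early vascular progenitors, was at 52.4, 34.2 and 34.4 RPKM in the endothelial libraries. In Il33+ WAT-MSCs it was at 1.92, 0.83 and 1.74 RPKM, in Il33- WAT-MSCs at 1.27, 1.10 and 1.41, in lung MSCs at 6.97, 5.95 and 3.97 and in epithelium at 3.60, 3.84 and 2.69. The endothelial libraries were well clear of all others, and every lung library was above every WAT-MSC library. The difference was 4.05 ± 0.35 (limma adjusted p = 0.000606) against Il33+ WAT-MSCs, 4.17 ± 0.34 (0.000373) against Il33- WAT-MSCs, 2.64 ± 0.31 (0.00191) against lung MSCs and 3.22 ± 0.31 (0.000193) against epithelium.

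Sox17, the SOXF factor best known for arterial endothelium, was at 4.15, 0.61 and 5.68 RPKM in endothelial replicates 1, 2 and 3 and was listed at 0 in 10 of the 12 other libraries, with 0.07 RPKM in the remaining 2. Endothelial replicate 2 was the low library, although still above all 12 others. Only 2 libraries reached 1 RPKM, so Sox17 did not pass the filter. Without the filter its difference was 1.90 ± 0.54 (limma adjusted p = 0.176) against Il33+ WAT-MSCs, 1.93 ± 0.53 (0.135) against Il33- WAT-MSCs, 1.93 ± 0.53 (0.106) against lung MSCs and 1.90 ± 0.54 (0.038) against epithelium, the last of which passed the test. Sox18, a SOXF factor of vascular and early lymphatic endothelium, was at 18.4, 26.7 and 28.6 RPKM in the endothelial libraries. It was at 0.00, 0.48 and 0.22 RPKM in Il33+ WAT-MSCs, 0.11, 0.53 and 0.59 in Il33- WAT-MSCs, 0.26, 2.02 and 0.76 in lung MSCs and 0.12, 3.63 and 1.36 in epithelium. Replicate 1 was the lowest of its group in the endothelial cells and in all 4 other populations. The difference was 4.37 ± 0.38 (limma adjusted p = 0.000606) against Il33+ WAT-MSCs, 4.17 ± 0.39 (0.000619) against Il33- WAT-MSCs, 3.74 ± 0.41 (0.00159) against lung MSCs and 3.45 ± 0.52 (0.00177) against epithelium. As ratios of means these were 105, 59.9, 24.2 and 14.4, since a pseudocount of 1 understates differences of genes that are low in a group.

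Tal1, the helix-loop-helix factor needed for blood and for endothelial specification, was at 37.7, 3.25 and 4.94 RPKM in endothelial replicates 1, 2 and 3. It was at 0.03, 0.03 and 0.01 RPKM in Il33+ WAT-MSCs, 1.25, 0.02 and 0.00 in Il33- WAT-MSCs, 0.00, 0.67 and 0.35 in lung MSCs and 0.02, 0.65 and 0.09 in epithelium. All 3 endothelial libraries were above every other library, but replicate 1 was 11.6 times as high as replicate 2. With this spread the difference was 3.28 ± 0.76 (limma adjusted p = 0.051) against Il33+ WAT-MSCs, 2.91 ± 0.80 (0.0739) against Il33- WAT-MSCs and 2.92 ± 0.78 (0.0647) against lung MSCs. Against epithelium it was 3.02 ± 0.79 (0.0216), a call lost without epithelial replicate 1, 2 or 3 (adjusted p = 0.0879, 0.0525 and 0.0713). With all 15 libraries in one fit the adjusted p was 0.0025, 0.00444 and 0.00438 against the MSC populations, and with a pseudocount of 0.1 it was 0.026 against Il33+ WAT-MSCs. Without endothelial replicate 1 the difference from Il33- WAT-MSCs was 1.93 ± 0.49 (adjusted p = 0.0601), and Tal1 did not pass the filter in the other 3 comparisons.

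Gata2, the GATA factor that acts with Tal1 and the ETS factors at endothelial and hematopoietic enhancers, was at 4.82, 4.81 and 7.0 RPKM in the endothelial libraries. It was at 0.00, 0.01 and 0.06 RPKM in Il33+ WAT-MSCs, 0.00, 0.04 and 0.08 in Il33- WAT-MSCs, 0.10, 0.91 and 1.14 in lung MSCs and 0.46, 2.12 and 0.78 in epithelium. All 6 lung libraries were above all 6 WAT-MSC libraries, but near the floor, with 0.10 RPKM in the lowest lung library against 0.08. The share of all genes separated by tissue in this way was not computed for Gata2, Erg or Sox7. The difference was 2.66 ± 0.38 (limma adjusted p = 0.00595) against Il33+ WAT-MSCs, 2.64 ± 0.39 (0.00476) against Il33- WAT-MSCs, 1.97 ± 0.40 (0.0226) against lung MSCs and 1.69 ± 0.42 (0.0174) against epithelium. Against lung MSCs the adjusted p was 0.0732 with a pseudocount of 0.1, 0.0846 without endothelial replicate 2, 0.0527 without endothelial replicate 3, and 0.12, 0.104 and 0.0787 without lung MSC replicates 1, 2 and 3. Against epithelium it was 0.0577 without endothelial replicate 3 and 0.0908 and 0.105 without epithelial replicates 1 and 3.

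The 3 endothelial libraries differed among themselves in a way that was not shared by the factors. Replicate 1 was highest for Erg, Fli1, Sox7 and Tal1 and lowest for Ets1 and Sox18, replicate 2 was highest for Ets1, and replicate 3 was highest for Sox17, Sox18 and Gata2. The ratio of highest to lowest library was 11.6 for Tal1 and 9.31 for Sox17, 2.49 for Ets1, 2.15 for Erg, and 1.46 to 1.66 for Fli1, Sox7, Sox18 and Gata2. Markers of other cells also varied. Leukocyte markers summed to 12.3, 187 and 68.2 RPKM in replicates 1, 2 and 3, and 7 erythroid and platelet markers to 20.0, 236 and 381. Both sums were lowest in replicate 1, the library with the highest Tal1, a gene also used by red cell and platelet precursors. Hey2, an arterial Notch target, was at 11.6, 0.70 and 0.38 RPKM and Hey1 at 9.10, 5.83 and 7.26, both highest in replicate 1. Dll4 (0.09, 6.09 and 5.46), Notch4 (1.14, 4.80 and 3.72) and Heyl (3.82, 6.43 and 6.97), also of the Notch pathway, were lowest there. These Notch genes thus did not share an order. Prox1, the lymphatic master regulator, was at 4.80, 19.5 and 23.0. The 7 lymphatic markers summed to 181, 170 and 331 RPKM, 5 mesothelial markers to 52.4, 145 and 186, and stromal markers to 2105, 2347 and 4326. Erg and Fli1 were lowest and stromal markers highest in replicate 3, where Sox17, Sox18 and Gata2 were also highest. The endothelial markers summed to 882, 750 and 762 RPKM in replicates 1, 2 and 3. Replicate 1 also had the most transcripts at 0, at 10.9% of all, against 3.78% and 2.58%. The part of these marker levels in the spread of the factors was not tested.

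**Figure D3:**
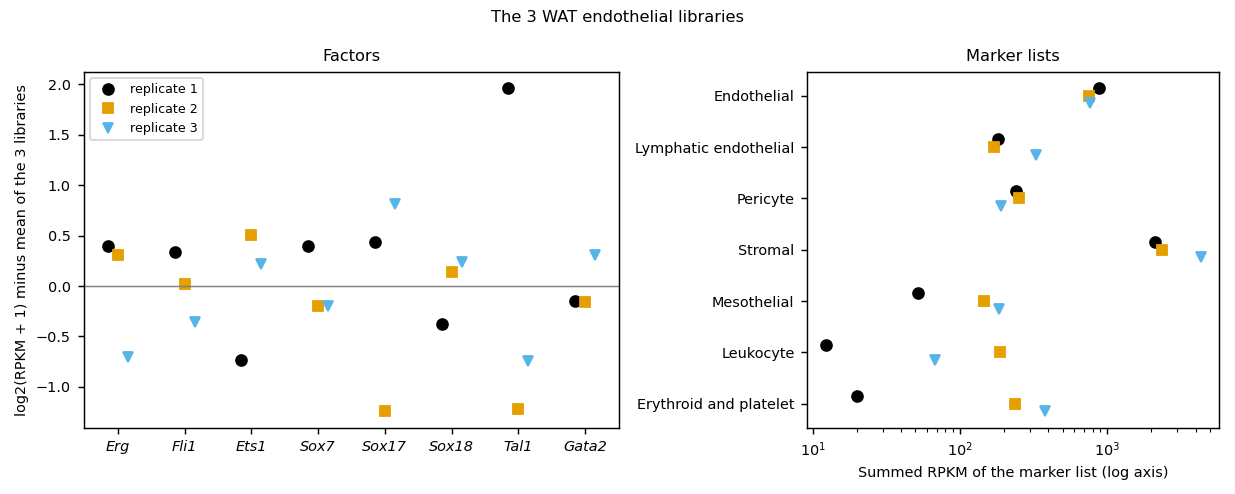
Left, deviation of each factor in the 3 WAT endothelial libraries from their mean, in log2(RPKM + 1); right, summed RPKM of 7 marker lists in the same libraries on a log axis. Replicate 1 (black circles) is high for Tal1 (1.96 above the mean) and has the lowest leukocyte, mesothelial, and erythroid and platelet sums.

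To see which factors remained measurable outside endothelium, each mean was expressed as a percentage of its endothelial mean and set beside the same percentage for the 12 endothelial markers. The 8 factors ranged from 0.153% to 15.98% in Il33+ WAT-MSCs (median 1.80%) and the markers from 1.12% to 14.97% (median 1.83%). In Il33- WAT-MSCs the factors had a median of 2.22% and the markers 1.08%, in lung MSCs 7.94% and 5.35%, and in epithelium 7.65% and 8.99%. Ets1 was above the highest marker in all 4 populations, at 15.98%, 26.6%, 25.0% and 19.6% in this order, where the highest marker was at 14.97% (Kdr), 3.30% (Kdr), 10.7% (Cd93) and 19.2% (Cd93). With each endothelial library left out in turn, this held in Il33- WAT-MSCs and lung MSCs. In Il33+ WAT-MSCs Ets1 was below the highest marker without replicate 1 (13.01% against 13.5% for Esam) or 3 (16.8% against 17.1% for Kdr), and so it was in epithelium without replicate 1 (15.9% against 20.4% for Cd93) or 3 (20.6% against 20.8% for Kdr). Sox7 (13.96%) and Gata2 (12.9%) exceeded every marker in lung MSCs, also with any endothelial library left out. Fli1 did so in Il33- WAT-MSCs (4.07%), though not without replicate 3, and Gata2 in epithelium (20.2%), though not without replicate 1 or 2. Erg, at 12.1% of its endothelial mean in epithelium and 8.22% in lung MSCs, lay within the range of the markers in both. The ceiling is that of these 12 markers only. Outside them, Tek had a mean of 24.2 RPKM in endothelial cells and 11.3, 12.5, 13.2 and 2.78 in the other populations. Eng had 50.8 RPKM, and 13.2, 17.3, 14.9 and 3.78. Both thus kept a larger part of their endothelial mean than Ets1 in the MSC populations, and a smaller part in epithelium. Levels of Sox17 and Tal1 outside endothelium were at most 2.77% of the endothelial mean in any population, but for Tal1 this rests on endothelial replicate 1. Without that library the endothelial mean of Tal1 was 4.10 RPKM, and its level was 10.3% of it in Il33- WAT-MSCs, 8.30% in lung MSCs and 6.19% in epithelium.

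**Figure D4:**
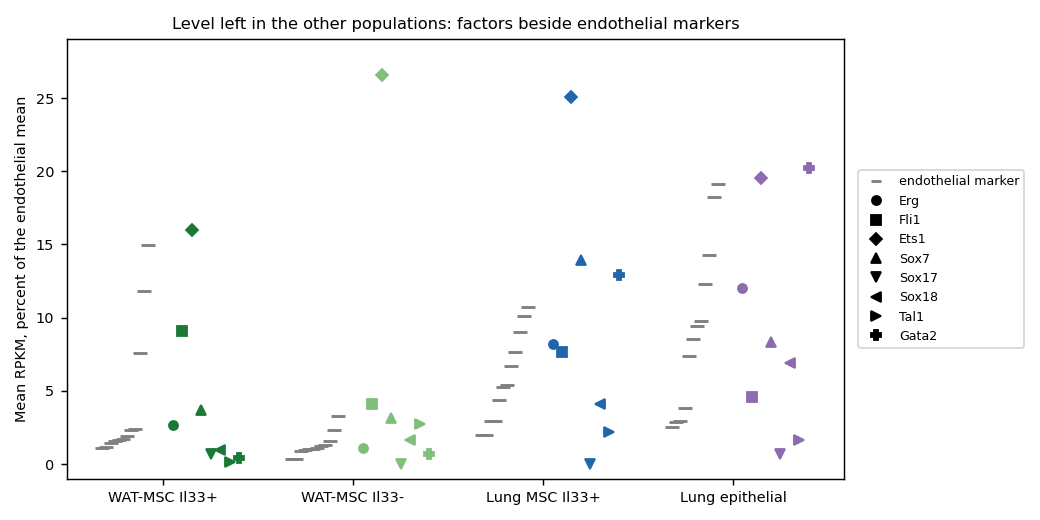
Mean RPKM in each other population as a percentage of the endothelial mean for the 8 factors (coloured symbols) and the 12 endothelial markers (grey dashes, in rising order). Ets1 lies clearly above all markers in Il33- WAT-MSCs (26.6% against at most 3.30%) and lung MSCs, and close to the highest marker in the other 2 populations.

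Between Il33+ and Il33- WAT-MSCs none of the 4 factors that passed the filter was called (limma), and 0 had an unadjusted p under 0.05, where 1.57% of 8448 genes were called in either direction. The difference, Il33+ minus Il33-, was 0.84 ± 0.57 for Erg (limma adjusted p = 0.646), 0.67 ± 0.36 for Fli1 (0.535), -0.51 ± 0.38 for Ets1 (0.671) and 0.12 ± 0.36 for Sox7 (0.939). In simulated data for this comparison 26.9% of genes changed by 1 on the log2 scale were called and 85.1% of those changed by 2. Changes were placed only in genes with a mean log2(RPKM + 1) above 2, which Ets1 exceeded and Erg, Fli1 and Sox7 did not. The recovery at the level of Erg, Fli1 and Sox7 is thus not known, and differences of the size seen here could be missed. Between Il33+ MSCs of WAT and lung, 1 of 4 factors was called, beside 6% of 8554 genes. Sox7 was lower in WAT (-1.41 ± 0.32, limma adjusted p = 0.0244), a call lost with lane as a covariate (0.0533), without the filter (0.0682), without WAT Il33+ replicate 3 (0.0563) and without lung MSC replicate 1 (0.13) or 2 (0.136). For Erg the difference was -1.56 ± 0.44 (adjusted p = 0.0729), and the adjusted p was 0.018 without WAT Il33+ replicate 3. Ets1 (-0.51 ± 0.29, 0.407) and Fli1 (0.14 ± 0.31, 0.881) differed by less. The endothelial markers were likewise higher in the lung MSC libraries, at a summed 39.5 to 64.6 RPKM against 13.6 to 34.0, and their part in the Sox7 and Erg values was not tested.

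Most factors were represented by 1 RefSeq transcript, but Erg had 6 and Ets1 and Tal1 had 2 each, and the division of RPKM between transcripts of a gene is an estimate from short reads. In the endothelial libraries Erg NM_001302154 held 36.1%, 36.3% and 38.2% of the summed RPKM and NM_001302183 33.2%, 29.1% and 28.8%, with NM_001302153 at 12.2%, 15.3% and 15.5%. The order of the 6 transcripts was thus alike in the 3 libraries although the totals ranged from 68.2 to 147 RPKM. NM_001302153 and NM_001302154 start 45 bases apart, at chr16 positions 95459348 and 95459303. For Tal1, NM_011527 held 54.9%, 55.1% and 55.1%. Its share was much the same at far lower totals, such as 55.2% in Il33- WAT-MSC replicate 1. In lung MSC replicates 2 and 3 it was 55.2% and 54.3%. A share this constant cannot show whether the high level in replicate 1 lay in 1 transcript or in both. Ets1 differed: NM_001038642, which lacks a coding exon of 261 bases (chr9:32738099-32738359) of NM_011808, was at 3.43, 19.2 and 10.5 RPKM, or 32.2%, 72.3% and 48.6% of the gene, whereas NM_011808 was at 7.24, 7.36 and 11.1. By this estimate the shorter transcript was low in replicate 1, where NM_011808 was also lowest, though close to replicate 2. The share of NM_001038642 varied widely in other populations too. It was 66.2%, 93.4% and 8.70% in Il33+ WAT-MSCs and 8.05%, 53.6% and 60.3% in Il33- WAT-MSCs. In lung MSCs it was 74.5%, 61.3% and 50.6%, and in epithelium 72.0%, 48.0% and 26.2%. A drop of 1 transcript thus cannot be told apart from variation of the estimate.

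**Figure D5:**
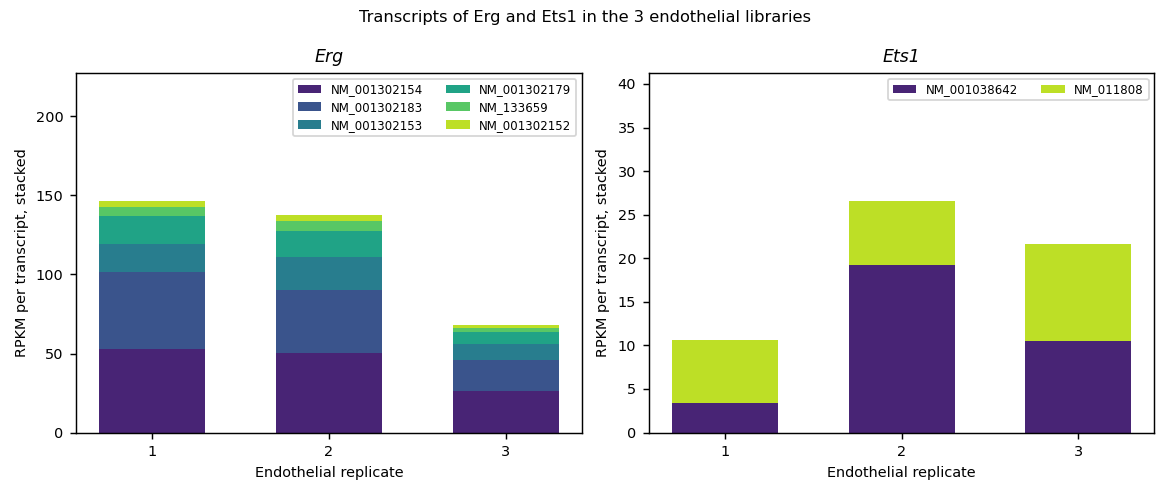
RPKM of each RefSeq transcript of Erg (left, 6 transcripts) and Ets1 (right, 2 transcripts) in the 3 WAT endothelial libraries, stacked. The Erg transcripts keep similar shares at every total, while Ets1 NM_001038642 ranges from 3.43 to 19.2 RPKM.

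Since these factors act on one another's genes, the 250 bases upstream of annotated starts were searched on both strands for the ETS core GGAAG, the E-box CANNTG of helix-loop-helix dimers, the motif AGATAA of zinc finger factors of the Gata family, and the SOX motif ACAAT. RefSeq windows of GRCm38 were available here for Erg, Tal1 and Gata2, and 3 of them are printed because they precede the transcripts just described, with the matches in capitals. Each runs 5′ to 3′ on the strand of the gene and ends at the base before the start, at chr16:95459349-95459598 (minus strand) for Erg, chr4:115056176-115056425 (plus strand) for the first Tal1 start and chr4:115057561-115057810 (plus strand) for the second.
Erg: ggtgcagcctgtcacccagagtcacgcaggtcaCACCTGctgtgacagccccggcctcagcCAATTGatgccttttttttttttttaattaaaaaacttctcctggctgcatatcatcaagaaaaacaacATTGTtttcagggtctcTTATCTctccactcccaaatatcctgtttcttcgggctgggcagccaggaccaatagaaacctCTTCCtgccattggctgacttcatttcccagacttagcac
Tal1 first start: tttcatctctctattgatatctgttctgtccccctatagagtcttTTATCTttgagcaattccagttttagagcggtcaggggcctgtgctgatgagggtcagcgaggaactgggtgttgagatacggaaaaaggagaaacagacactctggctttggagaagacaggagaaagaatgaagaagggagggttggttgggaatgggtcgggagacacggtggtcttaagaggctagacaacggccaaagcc
Tal1 second start: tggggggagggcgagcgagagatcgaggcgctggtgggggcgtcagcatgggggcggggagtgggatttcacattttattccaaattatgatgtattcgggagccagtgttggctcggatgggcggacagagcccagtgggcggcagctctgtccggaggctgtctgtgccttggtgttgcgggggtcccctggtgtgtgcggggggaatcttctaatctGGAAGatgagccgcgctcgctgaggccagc
The Erg window held 1 ETS, 2 E-box, 1 GATA and 1 SOX match, the first Tal1 window 1 GATA match and the second 1 ETS match. Among all 32851 windows of this length 64.1% held the ETS motif, 66.2% the E-box, 9.99% the GATA motif and 27.7% the SOX motif. Of the other windows outside annotated exons, those upstream of further Erg starts held 1 ETS match (chr16:95530366-95530615) and no match (chr16:95586594-95586843), and that of Gata2 (chr6:88193641-88193890) had no match. A match describes the letters of the window and no binding.

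Relatives and partners of the factors were taken from lists of genes, described by counts. Of 16 other ETS genes 12 were tested, and none was called by limma in endothelial cells against Il33+ or Il33- WAT-MSCs, where 2 and 3 had an unadjusted p under 0.05. Elk3, an ETS repressor, was called higher against lung MSCs (1.75 ± 0.30, adjusted p = 0.0107) and epithelium (2.26 ± 0.33, adjusted p = 0.00142), and its difference from Il33+ WAT-MSCs was 1.85 ± 0.45 (adjusted p = 0.0648). Against epithelium, where 14.9% of all genes were higher, 6 were higher, including Ets2 (1.48 ± 0.34), and Etv5, a factor of alveolar epithelium, was lower (-2.34 ± 0.39). The median of the list was 0.21, 0.15, 0.15 and 1.02 in the 4 comparisons, beside medians over all genes of -0.18, -0.17, -0.14 and 0.08.

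Of 13 genes of the Tal1 complex, E proteins and their Id inhibitors, 10 were tested. None was called by limma against either WAT-MSC population, with 1 at an unadjusted p under 0.05 in each. Lmo2, the bridging partner of Tal1 and GATA factors, was at 3.39, 6.78 and 8.33 RPKM in endothelial cells and at 8.29, 7.65 and 13.4 in Il33- WAT-MSCs, so the groups overlapped. Against epithelium, beside the same 14.9% of all genes, 4 were higher, Id3, Tcf4, Lmo2 (1.75 ± 0.44) and Cbfa2t3 (1.57 ± 0.40), and Runx1 was lower (-3.20 ± 0.58). Against lung MSCs only Id3 was called, and it was lower in endothelium (-0.99 ± 0.22, adjusted p = 0.0336). The medians of the list were -0.13, -0.01, -0.25 and 0.91.

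Among 20 other transcription factors of endothelium 16 were tested, and 6, 7, 4 and 11 were higher in endothelial cells against Il33+ WAT-MSCs, Il33- WAT-MSCs, lung MSCs and epithelium (3.34%, 4.1%, 4.1% and 14.9% of all genes tested), with Heyl lower against lung MSCs (-1.53 ± 0.36). The largest differences called against Il33+ WAT-MSCs were those of Bcl6b (3.35 ± 0.40, adjusted p = 0.00218), an endothelial repressor, Epas1 (3.17 ± 0.32, 0.00131), the hypoxia-inducible factor HIF-2α, Prox1 (2.93 ± 0.62, 0.0359) and Hhex (2.38 ± 0.43, 0.0173). Epas1 was not restricted to endothelium, with a mean of 194 ± 39.4 RPKM there and 190 ± 27.5 in lung epithelium. The medians of the list were 1.06, 1.71, 0.69 and 1.79.

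Of 23 genes reported as targets of the factors, 22 were tested. Of these, 17, 17, 17 and 20 were called higher in endothelial cells in the 4 comparisons, where 3.34%, 4.1%, 4.1% and 14.9% of all genes were. None was called lower. Cd34, on which the MSCs were gated, had a lower mean in endothelial cells (136 RPKM) than in the MSC populations. There it was 228 in Il33+ WAT-MSCs, 144 in Il33- WAT-MSCs and 178 in lung MSCs. The largest differences against Il33+ WAT-MSCs were those of Pecam1 (5.62 ± 0.29), which encodes the CD31 used in the sort, Cdh5 (5.17 ± 0.35), the vascular cadherin, Vwf (5.09 ± 0.32), the clotting factor stored by endothelium, and Plvap (4.84 ± 0.36), the diaphragm protein of fenestrae, all with an adjusted p of 0.000232 or less. The medians of the list were 3.24, 3.78, 3.19 and 3.01. Several of these genes are also among the endothelial markers, and the list describes endothelial genes in general rather than the output of a single factor.

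The genes whose profile was most like that of the factors over the 15 libraries, by Pearson's r on log2(RPKM + 1) with the mean scaled profile of the 8, were Mmrn2 and Myct1 (both r = 0.988), Vwf (0.986), Gimap6 (0.981), Ushbp1 (0.977), Stab1 (0.974), Aqp1 (0.974) and Tie1 (0.972). The libraries fall into endothelial and other ones, so these values mainly describe that separation and carry no p. Mmrn2, an endothelial matrix protein, was at 34.0, 29.1 and 27.2 RPKM in the endothelial libraries and at most 0.97 elsewhere. Among the genes nearest to single factors, some also shared the highest or the lowest endothelial library of the factor. The nearest genes were selected over all 15 libraries, the endothelial ones included, so such sharing is partly built in. For Tal1 they were Ephx3 (0.959) and Pkn3 (0.958), and Pkn3, a kinase of the protein kinase C superfamily, was at 23.0, 4.45 and 7.12 RPKM, highest in replicate 1 like Tal1. For Sox17 the nearest was Timp4 (0.958), a metalloproteinase inhibitor at 12.9, 1.41 and 11.1 RPKM, lowest in replicate 2 like Sox17. For Ets1 the nearest were Nts (0.937), at 1.91, 12.1 and 11.3 RPKM and lowest in replicate 1, and Slc28a2 (0.922). Others did not, such as Cdh5, at 144, 191 and 178 RPKM and thus lowest in replicate 1, and Tnfsf10, at 13.2, 12.3 and 9.70 and lowest in replicate 3. Erg was nearest to Rapgef5 (0.978) and Cdh5 (0.977), Fli1 to Mmrn2 (0.972) and Slfn3 (0.972), Sox7 to Mcam (0.968) and Afdn (0.965), Sox18 to Vwf (0.977) and Myct1 (0.973), and Gata2 to Rtp3 (0.978) and Tnfsf10 (0.974). Each factor's own r with the mean profile, of which it is a part, ran from 0.856 for Ets1 to 0.969 for Sox18.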

How the data were processed

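Cells were sorted into 5 populations with 3 libraries each, and RNA was amplified with the Ovation RNA-seq System V2. The authors aligned reads with TopHat2 to mm10 in Partek software and deposited RPKM per RefSeq transcript; the counting settings are not given in the sources used here. RPKM keeps no read counts, so no counting interval was computed, and values of low transcripts are imprecise. The alignments per library are stated with the results.

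RPKM values were summed per symbol. Groups followed the sample titles. Each of 6 pairs of populations was compared with limma 3.58.1 (lmFit, eBayes with trend, R 4.3.3) on log2(RPKM + 1), for genes with at least 1 RPKM in 3 of 6 libraries, with Benjamini-Hochberg adjustment over all genes tested. The test was checked on simulated data. The 9 factors were all named; other genes were named as the 4 with the largest called difference per list against Il33+ WAT-MSCs, the 8 most like the mean profile and the 2 most like each factor. Hey2, Hey1, Dll4, Notch4, Lmo2, Elk3, Ets2, Etv5, Id3, Tcf4, Cbfa2t3, Runx1, Heyl, Tek, Eng and Cd34 were chosen after their values were seen. So were Cspg4, Notch3, Abcc9, Kcnj8 and Scgb1a1 among the cell type markers. Members and lists were chosen with earlier results of these data known. A list of 7 mast cell markers was not analysed here. Alternatives were a replicate block, lane as a covariate, 1 fit of all 15 libraries, median-ratio and quantile scaling, a pseudocount of 0.1, no filter, a filter of 3 RPKM, the most abundant transcript and leaving out each library. Leaving each endothelial library out of the percentages of the endothelial mean, and Lyz2 out of the leukocyte markers, was chosen after seeing the data. Coding and upstream sequences came from GENCODE M21 and RefSeq, both on GRCm38; all 15 transcripts of the factors were matched. The sequence comparison of the SOXF genes is not reported here.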

Additional observations from a re-analysis of the deposited data

How the results depend on the processing

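Erg, Fli1, Sox7 and Sox18 were called in the 4 endothelial comparisons under every alternative in which they were tested. Of all tested differences of the factors compared with an alternative, 464 kept their direction and side of the threshold, 32 fell short of it, 13 passed it and 2 changed sign. The latter were Sox7 between Il33+ and Il33- WAT-MSCs without Il33+ replicate 1 (-0.011, with up to 0.326 when another library was left out) and Fli1 between WAT and lung MSCs without WAT Il33+ replicate 2 (-0.042, up to 0.344 otherwise). Leaving out 1 library gave 3 to 5 factors called against Il33+ WAT-MSCs (3 without endothelial replicate 2 or 3, when 4 passed the filter) and 3 to 5 against Il33- WAT-MSCs (3 without the same libraries, when 5 passed), 4 to 6 against lung MSCs, 5 to 6 against epithelium, 0 between the WAT-MSC groups and 0 to 1 between tissues. Between tissues no factor was called with lane as a covariate (0) or without the filter (0); with lane, 6, 5, 5 and 7 factors were called in the endothelial comparisons.

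Whether replicate numbers pair the samples was not settled. Same-numbered libraries correlated at -0.07 to 0.16 in their deviations, and no comparison had all 3 pairs over 0.1. Deviations from the mean of 3 libraries cannot show that samples were unpaired. With a replicate block, 7, 7, 6 and 7 factors were called in the endothelial comparisons, 0 between the WAT-MSC groups and 2 between tissues (Sox7 and Erg, adjusted p = 0.0423).

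Over all genes, 1 fit of the 15 libraries moved the calls from 338 to 803, 496 to 1046 and 622 to 1073 against the MSC populations, and from 513 to 331 between tissues. Between the WAT-MSC groups 133 calls became 232 with the block and 20 without the filter. The causes were not tested. RPKM without depth limits what can be said of genes near 0, and with 3 libraries a group 1 library can end a call of Ets1, Gata2 or Tal1.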
